A study of Homo sapiens with 7 samples.

Results

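The regions described here are 6425 stretches of 1 kb that are packed with CpGs and stayed almost free of methylation in every library, also where the TET enzymes were missing. A bin was dense if 40 or more of its CpGs had 10 or more reads in all 7 libraries, and 8894 of 85087 bins with 5 or more such CpGs were dense. A dense bin was a member if its methylation level, the reads carrying C divided by the reads carrying C or T over both strands, was under 5% in all 7 libraries. The members made up 72.2% of the dense bins and 7.55% of the 85087 bins, and they held 387459 of the 1734462 CpGs that all libraries shared. The members were chosen by these levels in all 7 libraries, so everything said of those levels is a description with no test.

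The assay was ERRBS, enhanced reduced representation bisulfite sequencing, in which bisulfite turns unmethylated cytosine of CpG-rich fragments into a base read as T. HUES8 is an established line of human embryonic stem cells, used here as wild type (WT) or as a triple knockout of the genes TET1, TET2 and TET3 (TKO). WT cells were taken at day 0 as stem cells (SC), day 3 as cardiac mesoderm (CME), day 8 as cardiac progenitors (CP) and day 14 as beating cardiomyocytes (CM), and TKO cells at the stages SC, CME and CP. All differentiating cells received the Wnt pathway activator CHIR99021 and then the Wnt antagonist IWP2. Each genotype and stage had 1 library, so the spread between replicates is unknown for every value. The labels do not say how many knockout clones were used, and the WT CM library is at day 15 in its own description, with a source label that names another stage. The TET deletions cannot be seen in methylation calls.

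Most CpGs of the human genome are methylated, and the main exceptions are CpG islands, dense clusters of CpGs that often hold the start of a gene. TET enzymes oxidise 5-methylcytosine, a step toward its removal. Islands are also known to be kept unmethylated by means that stop the DNA methyltransferases from acting there, among them CXXC-domain proteins that bind unmethylated CpGs and methylation of histone H3 at lysine 4. Bisulfite reads 5-hydroxymethylcytosine as C too, so the C reads of the WT libraries can hold both.

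The promoters of 6 genes show the range from no residual methylation to full gain. Each line gives the 250 bases before a transcription start, from RefSeq's GRCh38.p14 table, and capitals mark the CpGs that were at 20% or more in TKO CP. All 250 bases lie inside the bin that holds the start. SDHA, the gene of a subunit of succinate dehydrogenase, and HOXA13, a homeobox factor of distal limb and hindgut, stand for members with no such CpG. The choice was made among promoters that lie wholly inside their bin, with chromosomes 8, X and Y left out. Of the member promoters in that choice, ZNF217, a zinc finger factor, had the most such CpGs. DUSP15, a phosphatase, had the most among those with a mean under 5% in WT CP. FAM43A and SPAG6, a gene of the sperm tail, lie in dense bins that gained methylation in TKO and are no members.
SDHA (member): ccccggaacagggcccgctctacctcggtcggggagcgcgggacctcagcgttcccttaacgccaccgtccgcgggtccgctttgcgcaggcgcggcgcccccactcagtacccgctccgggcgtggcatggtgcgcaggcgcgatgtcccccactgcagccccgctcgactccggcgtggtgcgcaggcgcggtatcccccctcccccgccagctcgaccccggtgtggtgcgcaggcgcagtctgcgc
HOXA13 (member): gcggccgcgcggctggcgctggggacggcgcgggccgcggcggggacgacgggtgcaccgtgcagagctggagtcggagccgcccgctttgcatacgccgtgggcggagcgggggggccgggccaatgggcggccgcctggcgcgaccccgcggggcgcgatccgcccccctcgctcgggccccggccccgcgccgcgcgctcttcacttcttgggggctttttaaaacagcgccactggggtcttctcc
ZNF217 (member): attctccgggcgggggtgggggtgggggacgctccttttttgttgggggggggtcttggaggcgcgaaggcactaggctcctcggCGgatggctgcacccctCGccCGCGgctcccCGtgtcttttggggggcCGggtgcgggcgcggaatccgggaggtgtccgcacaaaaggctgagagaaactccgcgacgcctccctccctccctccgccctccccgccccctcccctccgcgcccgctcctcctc
DUSP15 (member): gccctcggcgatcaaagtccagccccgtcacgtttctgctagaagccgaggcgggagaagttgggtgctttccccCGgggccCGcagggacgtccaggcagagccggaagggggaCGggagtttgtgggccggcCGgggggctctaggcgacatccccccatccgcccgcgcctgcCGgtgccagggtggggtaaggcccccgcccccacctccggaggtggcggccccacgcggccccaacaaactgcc
FAM43A (gain in TKO): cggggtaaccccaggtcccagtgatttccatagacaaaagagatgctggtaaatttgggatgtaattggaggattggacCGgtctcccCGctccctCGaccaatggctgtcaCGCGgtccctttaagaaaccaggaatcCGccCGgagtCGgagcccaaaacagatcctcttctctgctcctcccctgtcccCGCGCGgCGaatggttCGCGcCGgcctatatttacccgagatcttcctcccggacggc
SPAG6 (gain in TKO): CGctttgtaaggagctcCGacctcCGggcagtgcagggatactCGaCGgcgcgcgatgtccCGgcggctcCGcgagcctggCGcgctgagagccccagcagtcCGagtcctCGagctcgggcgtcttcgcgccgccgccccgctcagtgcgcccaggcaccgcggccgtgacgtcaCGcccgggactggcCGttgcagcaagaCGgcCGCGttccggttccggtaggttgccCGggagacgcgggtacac
These 6 were picked after their values were seen, and a CpG in lower case is either below 20% or was not measured in all libraries.

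The SDHA sequence, placed at chr5:218185-218434 of hg19 on the plus strand, had 33 measured CpGs with a mean level of 0.019% in WT CP and 0.072% in TKO CP, and its highest CpG in TKO CP was at 1.01%. HOXA13 (chr7:27239711-27239960, minus strand) had 29 measured CpGs with means of 0.0663% in WT CP and 0.604% in TKO CP. In ZNF217 (chr20:52210379-52210628, minus strand), 6 of 11 measured CpGs were at 20% or more in TKO CP. Its mean was 27.6% there and 36.6% in WT CP, so the residual methylation of this member promoter was present in both genotypes. In DUSP15 (chr20:30458468-30458717, minus strand), 5 of 16 measured CpGs were at 20% or more in TKO CP. Its mean was 11.6% there, 1.07% in WT CP, 10.9% in TKO SC and 4.67% in WT SC. In FAM43A (chr3:194406362-194406611, plus strand), all 15 measured CpGs were at 20% or more in TKO CP. Its mean was 0.687% in WT CP and 95.8% in TKO CP. SPAG6 (chr10:22634175-22634424, plus strand) was mixed, with 16 of 33 measured CpGs at 20% or more in TKO CP and a mean of 27.0%.

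Most dense bins that were unmethylated in WT were members. Of 7338 dense bins under 5% in all 4 WT libraries, 6425 (87.6%) were under 5% in the 3 TKO libraries as well. A further 820 (11.2%) reached 5% or more in TKO without a call, and 93 (1.27%) were called higher in TKO at 1 or more stages. A call needed an adjusted p under 0.01 in Fisher's exact test (two-sided, Benjamini-Hochberg over the 85087 bins) and at least 25 percentage points between the libraries. Over all bins, 6.26% were called higher in TKO at SC, 6.02% at CME and 12.0% at CP, while 0.119%, 0.0846% and 0.0458% were called lower. The limit of 5% bars a member from being called higher, so the members' own count of 0 says nothing. These calls compare single libraries and cover counting error only, since 1 read can count at several CpGs and PCR copies are not independent. Of the 93 bins that gained, 54 were called at SC, 54 at CME, 90 at CP, 50 at all 3 stages and 37 at CP alone. The 93 bins serve below as the bins of like CpG number.

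The limit of 5% cuts through a continuum. Among members, the bin with the highest level was chr1:29448001-29449000, whose nearest placed start was that of TMEM200B, at 4.9968% in TKO CP. The bin over the start of GRHPR, an enzyme of glyoxylate metabolism (chr9:37422001-37423000), reached 4.9878% in TKO SC, and GAL3ST1 (chr22:30970001-30971000) 4.9721% in TKO CP. Just outside were the bin of GDNF-AS1 (chr5:37839001-37840000) at 5.0% in TKO CP and that of PXDN (chr2:1748001-1749000) at 5.0191% in TKO CP. A bin beside FOXC1 (chr6:1609001-1610000) was at 5.0172% in TKO SC, while the next bin, over the FOXC1 start, was a member. On the other side, 33 dense bins were under 5% in the 3 TKO libraries but not in every WT library.

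The median member level in WT was 1.28% (SC), 1.29% (CME), 0.152% (CP) and 0.156% (CM). In TKO it was 0.424% (SC), 0.449% (CME) and 0.386% (CP). The WT SC and WT CME libraries therefore stood above all others. The C share of mitochondrial CpGs, taken here as a rough measure of unconverted cytosine, moved with them: 1.46% of their reads carried C in WT SC and 1.44% in WT CME, against 0.219% and 0.216% in the later WT stages. The TKO libraries had 0.142% (SC), 0.387% (CME) and 0.139% (CP). In the 4 WT libraries the median member lay below the library's mitochondrial share, and between 33.4% and 37.4% of members lay above it. In TKO, 87.3% of members lay above it at SC, 55.8% at CME and 80.8% at CP.

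**Figure D1:**
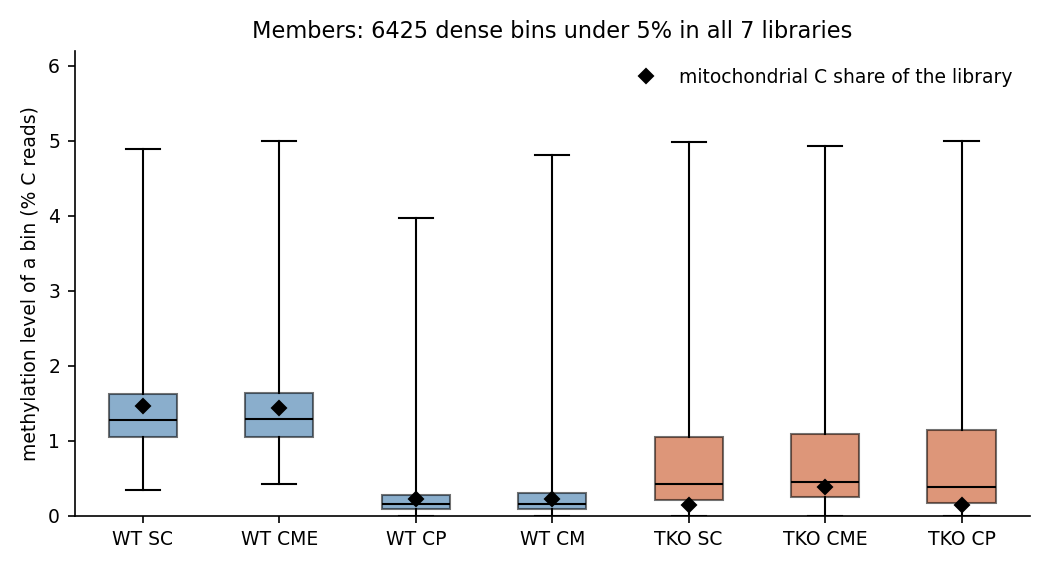
Methylation level of the 6425 member bins in each library (percent of reads carrying C), with the box from the lower to the upper quartile, the line at the median and whiskers at the lowest and highest bin. Diamonds are the share of C among mitochondrial CpG reads, which lies above the median in the WT libraries (blue) and below it in the TKO libraries (orange).

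As deposited, the median member was lower in TKO than in WT by 0.75 points at SC (a difference of -0.749) and 0.72 points at CME (-0.717), and higher by 0.229 points at CP. By stage, TKO was the higher library in 13.9%, 12.5% and 84.7% of members. The mitochondrial shares differed by -1.32, -1.05 and -0.08 points in the same order. With each library's mitochondrial share subtracted, the differences were 0.567, 0.331 and 0.309 points, so the direction at SC and CME turned. In WT that share exceeds the level of most members, so the subtraction takes off more than the members held, and whether it measures their unconverted cytosine was not tested. Over all 85087 bins the corresponding medians were -0.929, -1.04 and 1.30 points. The upper quartile of the members was 0.277% in WT CP and 1.14% in TKO CP, but 1.62% in WT SC against 1.05% in TKO SC and 1.63% in WT CME against 1.10% in TKO CME. Under 1% lay 97.2% of members in WT CP and 72.0% in TKO CP, and 19.5% in WT SC and 73.7% in TKO SC.

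Few member CpGs held high levels, though these held a minor part of the C reads. In TKO CP, 76.1% of the 387459 member CpGs had no C read at all and 0.773% (2994) were at 20% or more. For the other two TKO libraries the share was 0.736% (2852, SC) and 0.695% (2692, CME). In WT it was 0.298% in SC, 0.272% in CME, 0.111% in CP and 0.126% in CM. The order of the genotypes was thus the same at all 3 stages by this count, unlike by the median level. The CpGs at 20% or more gave 26.0% (SC), 21.8% (CME) and 21.2% (CP) of all C reads of members in TKO, against 8.82% in WT CP. Without them the level pooled over members in TKO CP fell from 0.857% to 0.679%, so most C reads lay at CpGs under 20%.

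The same sites recurred across the TKO stages. Of the 2852 member CpGs at 20% or more in TKO SC, 70.3% were so in TKO CME and 65.1% in TKO CP. In all, 4375 member CpGs (1.13%) reached 20% in at least 1 TKO library, 3164 of them in no WT library, and 1642 did so in all 3. Those 1642 lay in 865 member bins: 463 bins held 1 of them, 402 held more, and no bin held more than 10. Their median level in TKO was 42.3% (SC), 42.3% (CME) and 43.7% (CP). In WT the median at these sites was 16.2% (SC), 17.2% (CME), 4.68% (CP) and 5.37% (CM).

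Both strands could be compared at a minority of these CpGs. With 10 or more reads on each strand there were 722 of the 2852 in TKO SC, 738 of the 2692 in TKO CME and 714 of the 2994 in TKO CP. Among these, the 2 strands were each at 10% or more in 92.0% (SC), 92.8% (CME) and 93.6% (CP). They were covered less than the rest, with a median of 56 reads in TKO CP against 97 over all member CpGs. Among member CpGs of 50 or more reads, 0.536% were at 20% or more in TKO CP and 0.0587% in WT CP.

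By Fisher's exact test on single CpGs, 671 member CpGs were called higher in TKO at SC, 647 at CME and 1353 at CP, where 5.77%, 5.90% and 10.3% of all shared CpGs were called. The members' shares were 0.173%, 0.167% and 0.349%, a gap that the limit of 5% on the bin fixes in large part. Of the 387459 member CpGs, 25, 23 and 3 were called lower, where 0.261%, 0.310% and 0.120% of all shared CpGs were. The limit of 5% in WT leaves little room for lower calls, so it fixes this scarcity in large part too. The higher CpGs at CP fell in 775 member bins. In the 93 bins that gained, 80.7% of the 5221 CpGs were called higher at CP. Those bins were chosen by the same test on their summed reads, so the choice fixes this share in large part as well.

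Named single CpGs show how high the level of a single site inside a member can be. In the member over TCERG1L, a relative of a transcription elongation regulator (chr10:133109001-133110000), the CpG at position 133109029 had no C among 28 reads in WT CP and only C among 14 reads in TKO CP. That site lies 28 bases from the end of its bin, and the next measured CpG, 233 bases on, was at 2.2% in TKO CP. In the member over AGO4, an Argonaute protein (chr1:36273001-36274000), the CpG at 36273248 was at 2.47% in WT CP (81 reads) and 94.4% in TKO CP (71 reads). The CpG 12 bases before it was at 84.5% and that 277 bases after it at 7.32%. Here and in TCERG1L no measured CpG lies in the gap, so where the level fell is not resolved. In GRHPR the CpG at 37422239 was at 1.92% in WT CP (52 reads) and 94.6% in TKO CP (37 reads), with both neighbouring CpGs above 80%. WT SC had 27.1% at the TCERG1L site (70 reads), 21.6% at the AGO4 site (51 reads) and 41.7% at the GRHPR site (12 reads). WT CME had 38.4% at the TCERG1L site (73 reads), so these sites held C reads in WT cells as well. All 3 sites had reads from the minus strand alone in TKO CP, so the other strand gives no check.

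Residual methylation in members followed the local number of CpGs. Among member CpGs with no other CpG within 25 bases, 12.4% were at 20% or more in TKO CP. The share was 5.38% with 1 other CpG, 2.59% with 2, 1.24% with 3, 0.533% with 4 to 5 and 0.17% with 6 or more. WT CP fell in the same order, from 4.1% to 0.00903%, and TKO lay above WT in each of the 6 classes at SC, CME and CP. The order was also there away from the bin ends: more than 300 bases from an end of the bin, the share in TKO CP was 3.84% with 0 or 1 other CpG and 0.116% with 6 or more.

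**Figure D2:**
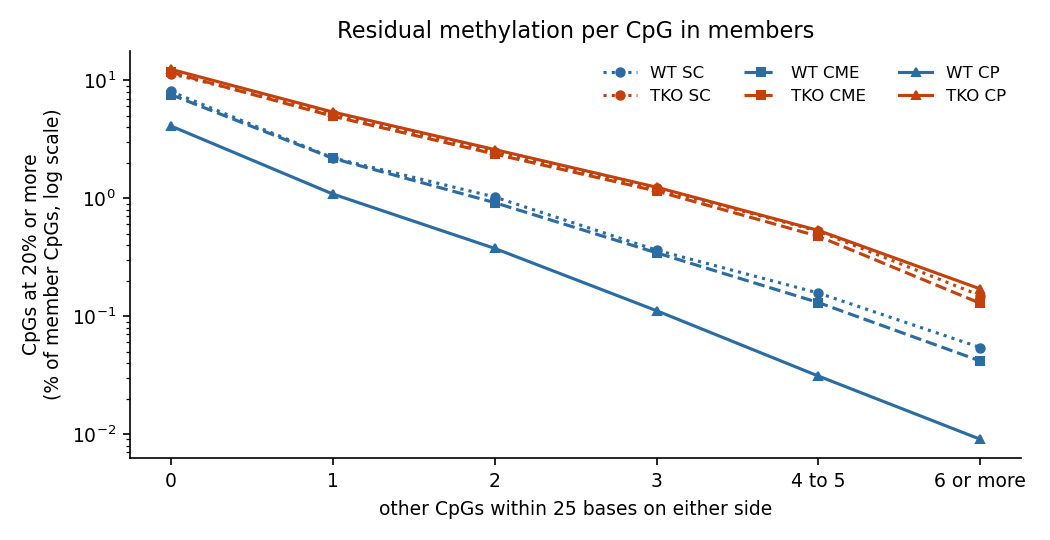
Percent of member CpGs at 20% or more (log scale) by the number of other CpGs within 25 bases on either side, for the 3 WT (blue) and 3 TKO (orange) libraries of SC, CME and CP. Every line falls from 0 to 6 or more neighbours, in TKO CP from 12.4% to 0.17%, and the TKO lines lie above the WT lines.

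It also followed the distance to the end of the member, or of the run where members adjoin. Within 50 bases of an end, member CpGs had a mean of 2.17% in TKO CP and 0.617% in WT CP, and 2.44% of them were at 20% or more in TKO CP. At 500 bases or more from an end, the mean was 0.539% in TKO CP and 0.201% in WT CP, and 0.165% were at 20% or more in TKO CP. The ends of a bin are fixed by the grid of 1 kb and not by the island, so they mark its border only roughly.

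Members lay on every chromosome. They made up 55.2% of the 565 dense bins of chromosome 19 and 56.8% of the 266 of chromosome 22, the lowest shares among chromosomes with 100 or more dense bins, and 84.8% of the 132 of chromosome X, the highest. Over dense bins under 5% in WT the shares lay closer together, from 82.5% on chromosome 22 to 92.9% on chromosome 18. No bin of chromosomes 13, 18, 21, X or Y was among the 93 that gained. In that order they had 172, 169, 98, 123 and 3 dense bins under 5% in WT. Over all chromosomes 1.27% of such bins gained, so a count of 0 says little there.

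The 6425 members formed 5643 runs, of which 4915 were single bins, 677 were pairs, 48 had 3 bins and 3 had 4. The 3 longest lay over PDGFA, a growth factor for mesenchymal cells (chr7:556001-560000), over CTBP2, a transcriptional corepressor (chr10:126847001-126851000), and at TSHZ3-AS1 (chr19:31839001-31843000). Over PDGFA the 4 bins were at 0.739%, 0.168%, 0.172% and 0.149% in TKO CP. Over CTBP2 the middle bins had 1 C read among 8012 and 1 among 3900 in TKO CP, while an outer bin was at 1.21%. The TSHZ3-AS1 run was least even, from 0.169% to 3.59% in TKO CP. Runs of 3 bins lay beside JUN-DT, at IRF2BP2 and at PTMA, the gene of prothymosin alpha.

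Edges were examined in the bins directly beside runs of members. A neighbour of 40 or more CpGs is one that failed the rule, so the shares are given also for neighbours of 5 to 39 CpGs, which were never dense enough to be members. Of 11237 positions beside a run, 5405 were measured with 5 or more CpGs, and their median level was 0.541% in WT CP and 3.23% in TKO CP. They were called higher in TKO in 356 cases (6.59%) at SC, 304 (5.62%) at CME and 569 (10.5%) at CP, beside 6.26%, 6.02% and 12.0% of all bins, and lower in 4, 3 and 1 cases. Of the 5070 neighbours of 5 to 39 CpGs, 6.57%, 5.62% and 10.5% were called higher, beside 6.41%, 6.15% and 12.6% of all bins of that CpG number. Among neighbours under 20% in WT, 4.55% were called at SC, 3.81% at CME and 8.31% at CP. Of all bins under 20% in that WT library, 10.2%, 8.90% and 16.5% were called. These bins, and the bins of any CpG number above, include the 6425 members, which the limit of 5% bars from a call. The shares without the members are therefore higher than those given. Among neighbours at 20 to 80% in WT the shares were 25.5%, 22.3% and 39.8%, beside 22.3%, 24.3% and 36.6% of all bins in that range. Of 120 neighbours of the 93 gaining bins, 76 were called at SC, 76 at CME and 96 at CP.

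Outward from a run of members, the level rose gradually in every library and rose faster in TKO. Within 100 bases of the run the mean CpG level was 1.38% in WT CP and 4.29% in TKO CP. At 400 to 500 bases it was 8.93% and 21.4%, and at 800 to 900 bases 21.1% and 39.4%. The difference was widest in that last class, at 18.3 points, and was 10.2 points there for SC and 10.6 points for CME. Beside the 93 gaining bins the level within 100 bases was 3.83% in WT CP and 63.0% in TKO CP.

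**Figure D3:**
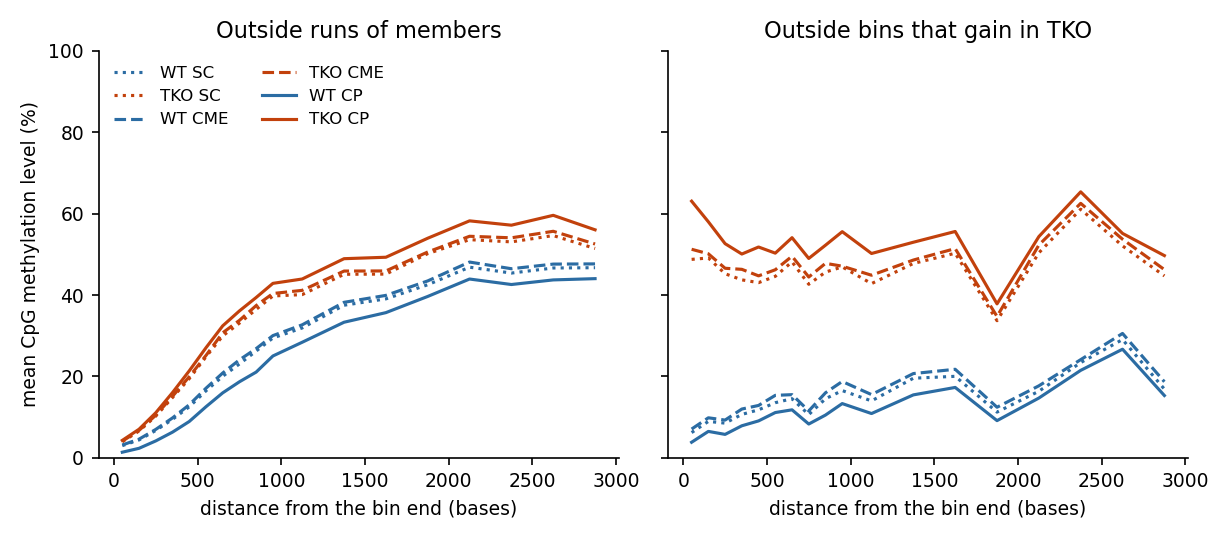
Mean CpG methylation level by distance outward from the end of a run of members (left) and of the 93 bins that gained in TKO (right), for WT (blue) and TKO (orange) at SC, CME and CP. Beside members the lines start near 0 and part with distance, to 21.1% in WT CP and 39.4% in TKO CP at 800 to 900 bases, while beside gaining bins they are apart from the first 100 bases.

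The border itself was taken as the first place outward, within 5 kb, where 2 consecutive CpGs no more than 2 kb apart were both at 50% or more. It was found in both libraries of a pair at 4029 of 11286 ends for CP. It lay at a median of 1837 bases from the end in WT CP and 1368 bases in TKO CP. At 73.1% of these ends the border was at the same CpG in both, at 26.0% it was nearer in TKO and at 0.869% farther. A further 922 ends had a border in TKO CP alone and 14 in WT CP alone. Counting these, the border was nearer or present only in TKO at 39.7% of 4965 ends. Where nearer in both, the median shift was 637 bases. At SC the border was nearer in TKO at 19.8% of ends with both and the same at 78.7%, and at CME 19.6% and 78.5%. With the ends that had a border in 1 library alone, it was nearer or present only in TKO at 29.7% for SC and 29.5% for CME. Part of the change at CP was in WT: from WT SC to WT CP the border moved outward at 14.8% of ends and inward at 1.42%. From TKO SC to TKO CP it moved outward at 7.11% and inward at 8.44%.

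At some members the step was abrupt. ITGB1BP1 and CPSF3, an adaptor of integrins and a pre-mRNA cleavage factor, share a member (chr2:9563001-9564000) at 0.0345% in TKO CP. The bin beside it (chr2:9562001-9563000, 7 CpGs) was at 13.3% in WT CP and 95.2% in TKO CP. The member over ATP13A3-DT (chr3:194207001-194208000) was at 0.398% in TKO CP beside a bin at 13.3% in WT CP and 95.9% in TKO CP. A member near TCF7, a Wnt pathway transcription factor (chr5:133450001-133451000), was at 0.863% in TKO CP beside a bin at 14.95% and 92.8%. A member with no placed start nearby (chr4:8873001-8874000) was at 0.6% in TKO CP beside a bin at 5.27% in WT CP and 94.9% in TKO CP. In WT SC these 4 neighbours were at 35.6%, 20.4%, 23.7% and 7.63%, in the order given, since the choice set a limit on WT CP alone. They are 4 of the 6 steepest steps, and the remaining 2 have no placed start nearby. Of 4847 pairs of a member and a neighbour under 20% in WT CP, the neighbour was at 50% or more in TKO CP in 193 (3.98%).

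Starts of genes lay in many of the members. RefSeq promoter windows were placed on the hg19 positions of the files by the spacing of their CpGs, which worked for 11582 windows of 9867 genes. By these, 3484 members (54.2%, 95% Wilson interval 53.0 to 55.4) held a start, of 4087 genes, against 19 of the 93 gaining bins (20.4%, 13.5 to 29.7) and 31.6% of the 820 intermediate bins. The intervals cover counting error only. With CpG number in like classes the gap remained: at 40 to 49 CpGs the shares were 50.9% of members and 22.5% of gaining bins, at 50 to 69 CpGs 53.8% and 16.2%, and at 70 or more 59.3% and 4 of 16 bins. A start was protein-coding in 94.1% of members with a start, and 19.0% of them held starts on both strands. A bin without a placed start may still hold one, since 55.5% of windows with 8 or more CpGs were placed, and only where the files list their CpGs.

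Around 3951 protein-coding starts in members, the mean level in TKO CP was 0.549% in the 250 bases before the start and 0.463% in the 250 bases after it. WT CP had 0.182% and 0.167%. At 750 to 1000 bases upstream the means were 6.24% in WT CP and 12.8% in TKO CP, and at 750 to 1000 bases downstream 3.45% and 9.25%. A CpG near several starts counts once for each. Members with a placed start had a median of 0.323% in TKO CP and were at 1% or more in 22.6% of cases. Members without one had a median of 0.487% and were at 1% or more in 34.4%.

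**Figure D4:**
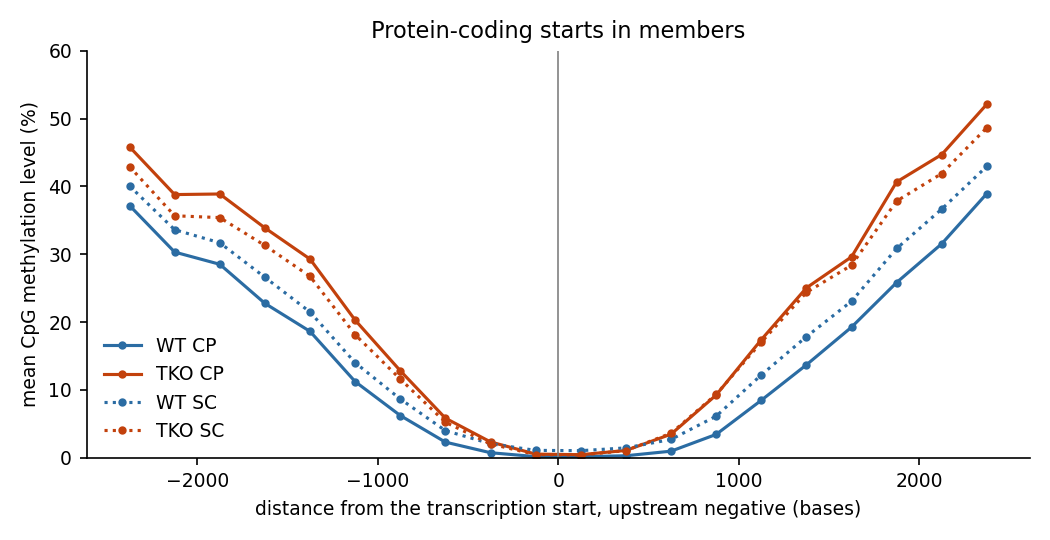
Mean CpG methylation level in classes of 250 bases by distance from 3951 protein-coding starts in members, upstream negative, for WT (blue) and TKO (orange) at SC and CP. All 4 lines are lowest at the start, and at 750 to 1000 bases upstream TKO CP is at 12.8% and WT CP at 6.24%.

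Genes of basic cell functions and genes of development were looked up in lists. Of 106 housekeeping genes, 52 had a placed start and 22 of those had it in a dense bin, in each case a member. Over all genes with a start in a dense bin, 86.5% had a member. Over the 24 bins concerned the median was 0.103% in WT CP, 0.198% in TKO SC and 0.168% in TKO CP. The WT counterpart of TKO SC is WT SC, where all members with a start had a median of 1.26%. RPL13, a ribosomal protein, was at 0.887% in WT CP and 0.665% in TKO CP, RPL18, another, at 0.0709% and 0.291%, and EIF4A1, a translation initiation helicase, at 0.05% and 0.0586%. PGK1, an enzyme of glycolysis, had no C among 2169 reads in TKO CP and 0.151% in WT CP. A count of 0 allows a level of up to 0.138% if the reads are independent. The limit is higher where 1 read counts at several CpGs. The highest in TKO SC was SEC61A1, of the protein channel into the endoplasmic reticulum, at 3.59%, beside 3.08% in WT SC. It had 0.824% in TKO CP and 0.582% in WT CP.

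Of 167 developmental regulators, 67 had a placed start and 39 had it in a dense bin: 31 of these had a member, 7 an intermediate bin, none a gaining bin and 2 a bin that was not under 5% in WT. PAX6 had starts in a member and in an intermediate bin. Of the 39 genes, 79.5% had a member and 17.9% an intermediate bin. Over all genes with a start in a dense bin, 86.5% had a member and 5.95% an intermediate bin. A gaining bin was held by 0.487% and a bin not under 5% in WT by 8.13%. At that share of gaining bins, a count of 0 among 39 genes says little. It also depends on the list: HOXD1, LBX2 and DMRT1, developmental factors that are not among the 39, had a start in a gaining bin. The 32 developmental members had a median of 0.255% in WT CP, 0.889% in TKO SC and 1.49% in TKO CP. All members with a start had 0.142%, 0.379% and 0.323%. TKO SC stands here beside WT CP, another stage, and in WT SC all members with a start had a median of 1.26%. HOXD13, a homeobox factor of distal limb, was at 0.279% in WT CP and 1.26% in TKO CP. PAX3, a factor of neural crest and muscle precursors, was at 0.604% in WT CP and 4.75% in TKO CP. TBXT, the mesoderm factor brachyury, was at 0.0644% and 1.25%, and EOMES, a factor of early mesoderm and endoderm, at 0.15% and 1.14%. In WT SC the bins of HOXD13, PAX3, TBXT and EOMES were at 1.20%, 2.02%, 1.41% and 1.56%. The TKO CP levels of TBXT and EOMES were thus below those of WT SC. MSX2, of limb and skull, was the lowest of the list in TKO CP at 0.0679%. The intermediate bins included NEUROG1, of neuronal fate, at 1.21% in WT CP and 11.3% in TKO CP, and SOX1, of early neural cells, at 1.16% and 5.37%.

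**Figure D5:**
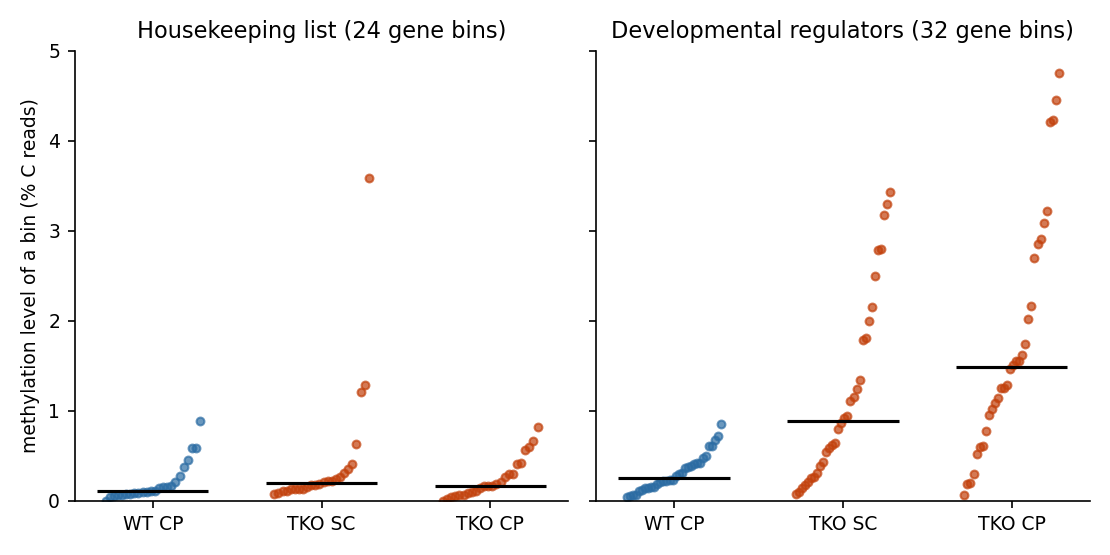
Methylation level of the member bins over starts of the housekeeping list (24 bins, left) and the developmental list (32 bins, right) in WT CP (blue), TKO SC and TKO CP (orange), 1 point per gene and bin in rising order, with a line at the median. In TKO CP the medians are 0.168% and 1.49%, and the highest developmental bin is at 4.75%. WT SC, the WT counterpart of TKO SC, is not shown.

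Members and gaining bins of like CpG number already differed in WT. The median was 56 CpGs in members and 51 in gaining bins, and the share of bins under 5% in WT that were members was 85.0% at 40 to 49 CpGs, 88.3% at 50 to 69, 89.9% at 70 to 99 and 89.6% at 100 or more. The share that gained was 1.61%, 1.21%, 0.891% and 0.905%. In WT CP the median was 0.152% in members, 0.935% in intermediate bins and 1.51% in gaining bins. Split by the WT CP level, 99.8% of the 1888 bins under 0.1% were members, 92.6% of those at 0.2 to 0.5%, 62.0% at 0.5 to 1%, 30.6% at 1 to 2% and 21.8% of the 147 bins at 2 to 5%. Gaining bins made up 0.0% of the first class, 2.25% at 0.5 to 1%, 10.2% at 1 to 2% and 16.3% at 2 to 5%. The WT CP level is part of the rule for both kinds of bin, so this order carries no test.

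The stretch of low methylation around the bin was also counted. Over adjacent measured bins under 10% in all WT libraries, the median stretch was 2 bins for members and 2 for gaining bins. A single bin stood alone in 27.1% of members and 35.5% of gaining bins, and stretches of 4 or more bins held 7.70% of members and 17.2% of gaining bins. Of the 93 gaining bins, 8 (8.60%) lay directly beside a member. The share over other dense bins was not counted, so this number has no background here. The gaining bin with the most CpGs, 112, was beside VENTX, a homeobox gene (chr10:135050001-135051000), at 0.875% in WT CP and 58.6% in TKO CP. The 6 gaining bins with the most CpGs, 88 to 112, lay between 51.5% and 95.2% in TKO CP. The 6 members with the most, 132 to 139, lay between 0.0414% at KLF16, a zinc finger factor (chr19:1863001-1864000), and 1.59% at CAMTA1, a calmodulin-binding transcription activator (chr1:7764001-7765000). PITPNM2, a lipid transfer protein (chr12:123635001-123636000), was at 0.746% and SS18L1, a chromatin remodelling subunit (chr20:60718001-60719000), at 0.172%.

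Exact motifs were counted on both strands in the 4678 placed windows of 300 bases of members and set beside the 5428 placed windows in dense bins, which include them, and the 35116 windows of the whole table. The SP1/KLF motif GGGGCGGGG was in 38.6% of member windows, 38.6% of dense windows and 15.7% of all. The ETS motif CCGGAAG was in 16.8%, 16.4% and 10.3%. The NRF1 motif GCGCATGC was in 5.13%, 4.81% and 3.05%. In the same order, the E-box CACGTG was in 10.2%, 10.3% and 7.26%, the cyclic AMP response element TGACGTCA in 2.84%, 2.65% and 1.85%, and the YY1 motif AAGATGGCG in 2.80%, 2.65% and 1.75%. The BANP motif CTCGCGAG was in 1.90%, 1.82% and 1.02%. Commoner in the whole table than in members were ATTGG, the reverse of the CCAAT box, at 28.4%, 27.2% and 34.6%, the TATA box TATAAA at 2.82%, 2.89% and 11.5%, and ACTACAATT of ZNF143 at 0.235%, 0.221% and 0.336%. None of the 10 motifs contains another. The gaining bins had 24 windows. Of these, 7 held ATTGG, 6 CACGTG, 3 GGGGCGGGG, 3 CTCGCGAG and 1 each CCGGAAG, TGACGTCA and TATAAA, numbers too small to set a share against. Member windows had a median GC content of 73.3% and 36 CpGs, and gaining windows 71.3% and 32. A match is a run of letters and not a bound factor.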

How the data were processed

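ERRBS was analysed in 7 libraries of HUES8 cells, 1 per genotype and stage, grouped by their titles. Alignment and methylation calling were done by a core facility, per the labels' protocols, on hg19, per the submitters' processing notes. The aligner is not given in the sources used here. Per the file headers, the deposited values are the coverage, a read count per CpG cytosine and strand that starts at 10 in every file, and the percent of those reads with C and with T, as the authors deposited it. Coverage summed over listed cytosines, where 1 read can count several times, was 120742115 to 213058905 per library. Coverage times percent gave whole reads in 100% of lines.

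C and T reads of both strands were summed per CpG and per bin of 1 kb. Of 2587280 CpGs in any library, 1734462 nuclear ones had 10 or more reads in all 7. Fisher's exact test was run on 85087 bins and on single CpGs for 3 pairs of libraries, TKO minus WT at SC, CME and CP. The test was checked on simulated data. The members, gene lists and motifs were chosen with earlier results of these data known, and the measures of local CpG number, strand, depth and border were chosen during the work. Bins named are up to 6 per kind: longest runs, most CpGs, nearest the limit, largest single-CpG difference, steepest edge, and largest gain. Genes named from the lists are among the first 6 of their class in list order, except SDHA, PGK1, SEC61A1, TBXT, EOMES and MSX2, named after their values were seen.

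RefSeq promoter windows (GRCh38.p14) of 300 bases were matched to the hg19 files by CpG spacing. Of 21319 windows with 8 or more CpGs, 11829 fitted at 1 place and 11582 were kept because a neighbouring window had the same offset. Alternatives changed the level limit, CpG number, depth, bin grid, level formula, call size and model. The tools were limma 3.58.1 in R 4.3.3, and scipy 1.17.1, numba 0.67.0, numpy 2.4.6, matplotlib 3.10.9 and pandas 2.3.3 in Python 3.11.15.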

Additional observations from a re-analysis of the deposited data

Results flagged for a closer look

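The genotype difference of the members had opposite signs at different stages. The median over members of TKO minus WT was -0.749 points at SC and -0.717 points at CME, against 0.229 points at CP. The difference between stages was not tested, since there is 1 library per genotype and stage. Every one of these values is below the spread of the mitochondrial share of C between the 4 WT libraries, which ran from 0.216% to 1.46%. Within the pairs that were compared, the share differed (TKO minus WT) by -1.32 points at SC, -1.05 at CME and -0.08 at CP.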

How the results depend on the processing

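Of 46 values recomputed under an alternative, 22 stayed within 1.5 times the reported count or within the Wilson interval of the reported share, 22 moved and 2 reversed. The 2 reversals were the median member differences with the mitochondrial share of C subtracted, chosen after seeing the data: 0.567 at SC and 0.331 at CME, with 0.309 at CP. Members numbered 4910 under a limit of 2%, 7146 under 10% and 2749 with 60 or more CpGs. On a grid shifted by 500 bases there were 6261, of which 4984 overlapped a reported member. Gaining bins numbered 406 under 20% in WT, 231 under 5% in WT CP and WT CM only (also chosen after seeing the data) and 58 by limma on arcsine square root levels, all 58 among the 93. At a call of 40 points, all bins gave 3393 higher and 20 lower calls at SC, 3212 and 18 at CME, and 6631 and 12 at CP. Neighbour bins of members were then called in 2.65%, 2.39% and 5.49%, with 10 or more CpGs per neighbour in 5.04%, 4.35% and 8.40%, and on the shifted grid in 5.83% at SC and 4.91% at CME. With 20 reads per CpG, 0.955% of member CpGs were at 20% or more in a TKO library. Counting starts within 1 kb of the bin, 66.2% of members and 34.4% of gaining bins had one. The cause of these moves was not tested. No paired analysis was possible because each group had 1 library and no replicate numbers are shared, and the limma fit above held stage as a term. Without replicates no value can be set against culture or library spread, and depth limits single CpGs more than bins.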

Other observations

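The promoters in dense bins that gained methylation in TKO fell at different stages. The 250 bases before the start of DMRT1, a factor of gonad development, had a mean level of 0.952% in WT CP, 89.3% in TKO SC and 90.8% in TKO CP. The window of HOXD1, a homeobox factor, was at 2.31% in TKO SC, beside 1.61% in its WT counterpart, and at 38.3% in TKO CP, beside 0.0403%. CYP26C1, which clears retinoic acid, was at 74.4% and 95.1%. At IRF5, an interferon regulatory factor, whose window also lies inside its called bin, none of the 9 measured CpGs reached 20% in TKO CP and the mean was 3.96%. These are values of single libraries, and the change between stages was not tested.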
